A study of Mus musculus with 6 samples.

Results

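Fatty acid oxidation and the genes that respond to its nuclear receptors were followed in mouse skin tumours with and without E-FABP, the epidermal fatty acid binding protein encoded by Fabp5. The set was a list of 35 genes of mitochondrial and peroxisomal fatty acid oxidation and known targets of the peroxisome proliferator-activated receptors (PPARs), chosen by name. Of these, 33 had a probe set that the platform annotation gives to that gene alone, out of 18193 such genes on the array. Where a gene had several probe sets, the one with the highest mean over the 6 arrays was taken. Cpt1b and Ucp2 had none and were not analysed here.

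The samples were cells from digested skin tumours of 3 wild-type (WT) mice and 3 E-FABP-deficient (EKO) mice. All had been given DMBA, which initiates skin tumours by mutation, together with the tumour promoter TPA for 5 months, so there was no untreated or tumour-free group. Strain, age, sex and the construct behind the deficiency are not stated in the available labels, and the deficiency is not described as limited to any cell type. Each array held the RNA of 1 mouse on an Affymetrix 3' expression array, and values are log2 RMA values, on which a difference of 1 is a doubling.

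Fatty acids enter mitochondria as carnitine esters and are shortened there by a spiral of dehydrogenation, hydration, a further dehydrogenation and thiolysis, whose electrons reach the respiratory chain partly through the electron transfer flavoprotein. Peroxisomes run a related spiral on very long and branched chains and detoxify the hydrogen peroxide it releases. PPARs bind fatty acids and switch on many of these genes, and E-FABP is known to carry fatty acid ligands to PPAR beta/delta, the receptor form prominent in keratinocytes.

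PPARs with their RXR partner recognise direct repeats of the hexamer AGGTCA spaced by 1 base. The RefSeq table of the GRCm38.p6 build held windows before the transcript start for 30 of the 35 genes, 31 windows in all. The 250 bases before the start are shown 5′ to 3′ for the 4 members whose EKO and WT values did not overlap, Acaa1b, Echs1, Acadl and Cat, and for Acaa1a, the close relative of Acaa1b. Capitals mark each AGGTCA hexamer found on either strand.
Acaa1b (chr9:119157094-119157343, minus strand): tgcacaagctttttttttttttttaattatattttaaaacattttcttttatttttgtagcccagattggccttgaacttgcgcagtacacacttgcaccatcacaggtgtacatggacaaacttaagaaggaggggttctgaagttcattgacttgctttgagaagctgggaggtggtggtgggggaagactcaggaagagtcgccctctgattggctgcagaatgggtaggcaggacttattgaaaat
Acaa1a (chr9:119341044-119341293, plus strand): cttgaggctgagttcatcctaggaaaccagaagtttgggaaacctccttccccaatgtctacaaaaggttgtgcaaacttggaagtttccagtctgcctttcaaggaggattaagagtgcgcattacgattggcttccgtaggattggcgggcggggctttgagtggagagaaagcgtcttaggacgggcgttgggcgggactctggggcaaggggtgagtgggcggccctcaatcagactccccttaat
Echs1 (chr7:140116422-140116671, minus strand): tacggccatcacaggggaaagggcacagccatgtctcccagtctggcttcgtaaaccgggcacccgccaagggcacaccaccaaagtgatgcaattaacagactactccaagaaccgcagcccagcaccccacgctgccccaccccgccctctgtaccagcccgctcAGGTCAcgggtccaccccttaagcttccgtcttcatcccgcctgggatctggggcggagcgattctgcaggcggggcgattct
Acadl (chr1:66863310-66863559, minus strand): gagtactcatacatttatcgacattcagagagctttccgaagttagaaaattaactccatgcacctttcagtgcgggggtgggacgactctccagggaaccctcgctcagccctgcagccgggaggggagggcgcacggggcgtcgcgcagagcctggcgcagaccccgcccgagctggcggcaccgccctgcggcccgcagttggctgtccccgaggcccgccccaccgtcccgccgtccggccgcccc
Cat (chr2:103485154-103485403, minus strand): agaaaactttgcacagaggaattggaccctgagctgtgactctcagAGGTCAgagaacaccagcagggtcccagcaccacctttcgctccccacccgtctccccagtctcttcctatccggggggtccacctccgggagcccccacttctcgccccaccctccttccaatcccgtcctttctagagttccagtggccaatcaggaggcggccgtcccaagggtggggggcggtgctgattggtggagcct

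The hexamer stood in the windows of Echs1 and Cat and not in those of Acaa1b, Acaa1a or Acadl. Over both strands it was found in 7 of the 31 member windows, 22.6%, against 14% of all 32851 windows of the table. The full repeat AGGTCANAGGTCA was in 0 member windows and in 0.0335% of all windows. With the fourth base of each hexamer free to be any base, as AGGNCANAGGNCA, which also covers the full repeat, it was again in 0 member windows and in 0.338% of all windows. These searches read only the letters of these windows. Acaa1a and Acaa1b lie near each other on chromosome 9 with Oxsr1 and Myd88 among the genes between them, and their windows had 48.2% identity in a global alignment. No other windows were aligned for comparison, so the value does not show whether the windows are more alike than unrelated ones.

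The labels matched the data: Fabp5 fell from 14.85 ± 0.073 in WT to 8.16 ± 0.166 in EKO tumours (log2, mean ± SD, n = 3 each; limma adjusted p = 1.04e-06). It was the 1 gene past an adjusted p of 0.05, which makes 0.0055% of all genes. The cells are labelled keratinocytes, and 8 of 8 keratinocyte markers (Krt5, Krt14, Krt1, Krt10, Trp63, Sfn, Dsp and Perp) were bright, with an array mean between 13.23 and 13.50. Markers of skeletal muscle, adipocytes and sebaceous glands were also measured, at 15 of 15, 5 of 8 and 6 of 8 genes. Array medians lay between 5.41 and 5.43, and 30 of the 33 members lay above them in every array. Ehhadh and Pdk4 lay below in some arrays and Fgf21 in all 6. With 3 arrays a group, array number limits precision, the labels call the replicates biological, and in tumour cell mixtures fewer cells of a type and less RNA per cell cannot be told apart.

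None of the 33 members passed with limma over all genes (0 called, adjusted p from 0.594 to 0.999). At an unadjusted p under 0.05, 3 members were on the lower side, Acaa1b, Echs1 and Acadl, and 1, Cat, on the higher side. The background over all genes was 3.7% on the lower and 3.44% on the higher side, 7.13% in all. These 4 were also the members whose groups did not overlap, 12.1% of those measured against a background of 12% (6.19% on the lower and 5.78% on the higher side). By means alone 25 of the 33 were lower in EKO tumours against 50% of all genes, with a median difference of -0.11 against 1e-04 over all genes. The count of 25 ran from 21 to 30 when each array was left out in turn.

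**Figure D1:**
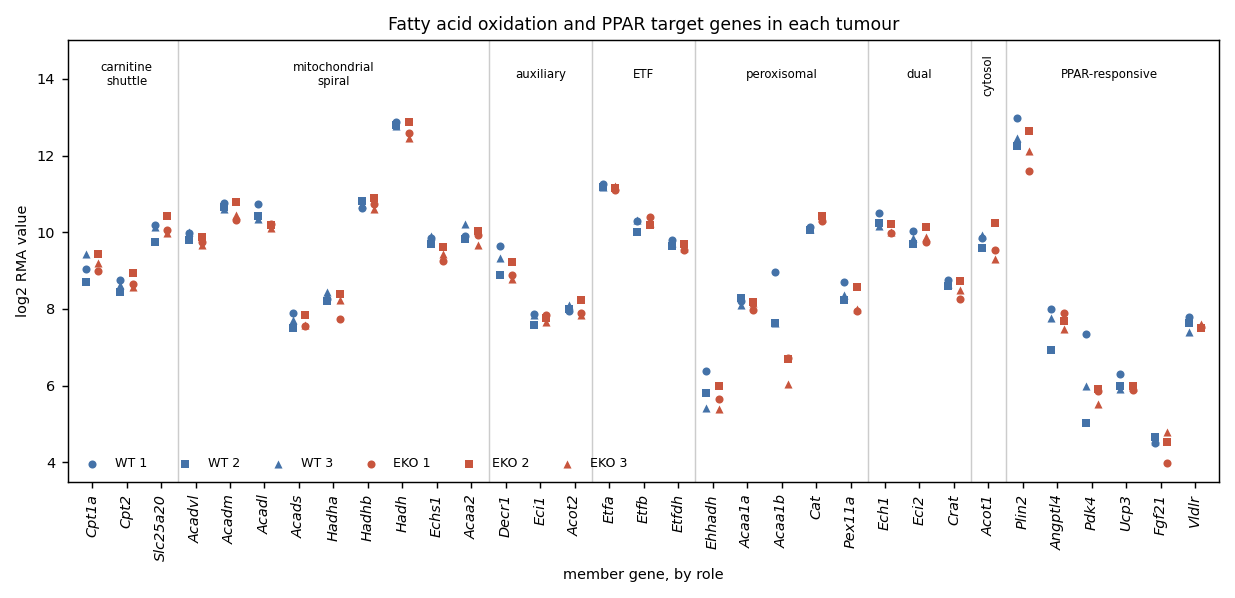
Log2 RMA value (vertical axis) of each of the 33 measured members, ordered by role, in the 3 WT (blue) and 3 EKO (red) tumours; circles, squares and triangles are replicates 1, 2 and 3, and ETF is the electron transfer flavoprotein. Acaa1b shows the widest gap between the groups, and for most other members the points of the groups intermingle.

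The 3 measured genes of the carnitine shuttle had slightly higher means in EKO tumours, all with overlap between the groups. Cpt1a, the gatekeeper on the outer mitochondrial membrane that makes acylcarnitines, read 9.05, 8.69 and 9.42 in WT and 8.998, 9.42 and 9.19 in EKO replicates 1, 2 and 3. The EKO values lay inside the WT range but for replicate 2, which exceeded the highest WT value by 0.0028, and the difference was 0.15 (SE 0.198, adjusted p = 0.892). Cpt2, which turns acylcarnitines back into acyl-CoA inside the mitochondrion, differed by 0.12 (95% interval -0.19 to 0.42). Slc25a20, the translocase that carries acylcarnitines across the inner membrane, also differed by 0.12 (95% interval -0.27 to 0.52). All 3 had their highest EKO value in replicate 2 and their lowest WT value in replicate 2.

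Most enzymes of the mitochondrial spiral had slightly lower means in EKO tumours, 8 of 9, with a median difference of -0.16 and 0 called. Echs1, the hydratase of short-chain enoyl-CoA, read 9.86, 9.71 and 9.91 in WT and 9.26, 9.61 and 9.43 in EKO tumours. Every EKO value was below every WT value, by as little as 0.09 between the nearest pair. The means differed by -0.39 (SE 0.116, adjusted p = 0.621), a 1.31-fold lower level. Acadl, the long-chain acyl-CoA dehydrogenase, read 10.73, 10.43 and 10.33 in WT and 10.20, 10.18 and 10.12 in EKO tumours. The EKO values were close together and all below the WT values, with a difference of -0.33 (SE 0.117, adjusted p = 0.651).

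The remaining acyl-CoA dehydrogenases overlapped between the groups. Acadvl, for very long chains, read 9.99, 9.81 and 9.999 in WT and 9.74, 9.89 and 9.67 in EKO tumours, a difference of -0.16 (adjusted p = 0.774). Acadm, for medium chains, read 10.76, 10.65 and 10.60 in WT and 10.32, 10.78 and 10.44 in EKO tumours, a difference of -0.16 (adjusted p = 0.832). Its EKO replicate 2 was the highest of all 6 arrays and the other EKO replicates were the lowest. Acads, for short chains, differed by -0.03 (95% interval -0.33 to 0.28).

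Hadha and Hadhb encode the subunits of the mitochondrial trifunctional protein, which takes long chains through the later steps. Hadha read 8.26, 8.21 and 8.44 in WT and 7.74, 8.39 and 8.25 in EKO tumours, and only EKO replicate 1 lay below the WT range (difference -0.18, adjusted p = 0.855). Hadhb differed by 0.02 (95% interval -0.23 to 0.27). Hadh, the hydroxyacyl-CoA dehydrogenase of shorter chains, read 12.86, 12.80 and 12.77 in WT and 12.58, 12.86 and 12.47 in EKO tumours, a difference of -0.17 (adjusted p = 0.803). Acaa2, the mitochondrial thiolase that closes the spiral, differed by -0.11 (95% interval -0.44 to 0.23).

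The auxiliary enzymes and the electron transfer flavoprotein showed small differences. Decr1, a dienoyl-CoA reductase for unsaturated chains, read 9.65, 8.88 and 9.33 in WT and 8.88, 9.22 and 8.77 in EKO tumours, so the groups overlapped (difference -0.33, adjusted p = 0.781). Eci1, an enoyl-CoA isomerase, had a difference of -0.0021 (95% interval -0.26 to 0.26), and Acot2, a mitochondrial acyl-CoA thioesterase, one of -0.03. Etfa and Etfb, the flavoprotein's subunits, differed by -0.05 and 0.06, and Etfdh, which hands its electrons to ubiquinone, by -0.11. Of the 18 mitochondrial members measured, 18 had a 95% interval inside -1 to 1, against 94.7% of all genes, so a doubling or halving of any one of them lies outside its interval. Within -0.5 to 0.5 lay 12 of the 18 intervals, against 74.9% of all genes.

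**Figure D2:**
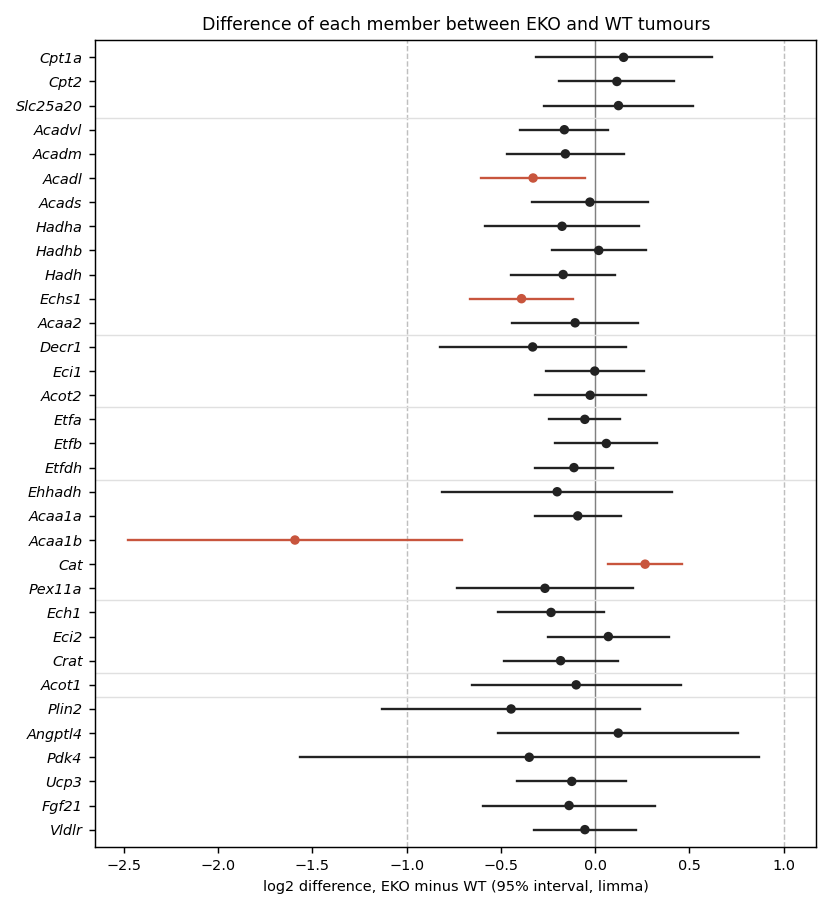
Difference of each member between EKO and WT tumours on the log2 scale (horizontal axis; points, with 95% intervals from limma as bars), by role from the carnitine shuttle at the top to the PPAR-responsive genes at the bottom; red marks members whose groups do not overlap, and dashed lines mark -1 and 1. All 18 mitochondrial intervals stay within the dashed lines, while those of Acaa1b, Plin2 and Pdk4 cross -1.

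The peroxisomal members held the largest difference of the set. Acaa1b, a peroxisomal thiolase, read 8.95, 7.64 and 7.62 in WT and 6.71, 6.68 and 6.05 in EKO tumours. All EKO values lay below all WT values, and WT replicate 1 stood above the rest. The means were 8.07 ± 0.762 and 6.48 ± 0.376 (SD, n = 3 each), a difference of -1.59 (SE 0.376, 95% interval -2.48 to -0.71) or 3.02-fold, and it did not pass over all genes (adjusted p = 0.594; 0.261 to 0.998 over its alternatives). Without WT replicate 1 the difference was -1.15, and it ran from -1.82 to -1.15 with each array left out in turn.

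Acaa1a, the nearby thiolase gene with the same enzymatic role, overlapped between the groups. It read 8.22, 8.28 and 8.09 in WT and 7.98, 8.18 and 8.14 in EKO tumours, a difference of -0.09 (95% interval -0.32 to 0.14, adjusted p = 0.864). Whether the differences of Acaa1a and Acaa1b differ from each other was not tested. The pair are near copies of each other. The probe set read for Acaa1a carries the suffix that Affymetrix gives to sets with probes that can bind other transcripts, and further probe sets annotated to both genes were not used, so how the signal divides between them is uncertain.

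Cat, which encodes catalase, the peroxisomal enzyme that breaks down hydrogen peroxide, stood on the other side. It read 10.14, 10.06 and 10.09 in WT and 10.28, 10.43 and 10.38 in EKO tumours, all EKO values being higher. The difference was 0.27 (SE 0.083, adjusted p = 0.625), a 1.2-fold higher level. Ehhadh, the bifunctional enzyme of the peroxisomal spiral, read 6.39, 5.81 and 5.43 in WT and 5.66, 5.99 and 5.38 in EKO tumours, with wide overlap (difference -0.20, adjusted p = 0.89). Pex11a, a membrane protein of peroxisome division, read 8.71, 8.23 and 8.37 in WT and 7.95, 8.57 and 7.997 in EKO tumours. Its EKO replicates 1 and 3 lay below the WT range and replicate 2 inside it (difference -0.27, adjusted p = 0.817).

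**Figure D3:**
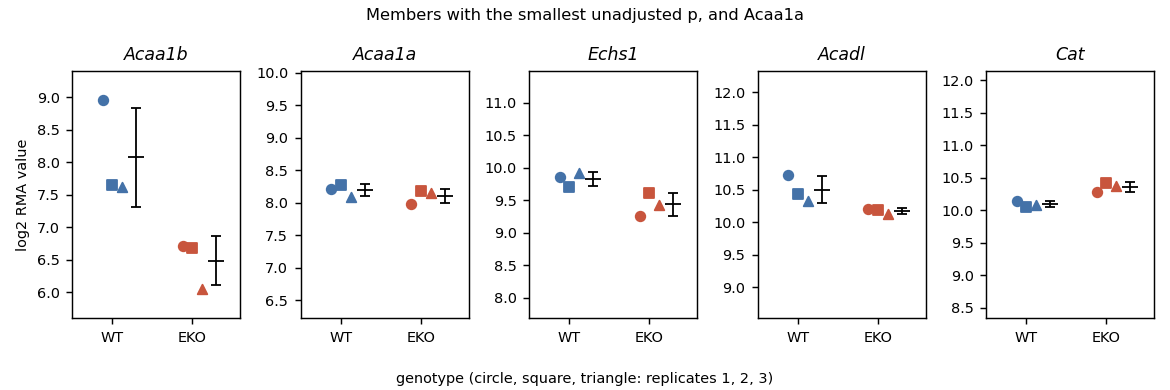
Log2 RMA values (vertical axes, each spanning an equal range) of Acaa1b, Acaa1a, Echs1, Acadl and Cat in WT (blue) and EKO (red) tumours; circles, squares and triangles are replicates 1, 2 and 3, with the mean and SD beside each group. The gap of Acaa1b, from 8.07 to 6.48, is wider than those of Echs1, Acadl and Cat, and Acaa1a overlaps.

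The 3 enzymes found in both organelles overlapped between the groups. Ech1, a dienoyl-CoA isomerase, read 10.49, 10.23 and 10.16 in WT and 9.98, 10.21 and 9.99 in EKO tumours, a difference of -0.23 (adjusted p = 0.734) with overlap through EKO replicate 2. Crat, the carnitine acetyltransferase, differed by -0.18 (95% interval -0.49 to 0.12) and Eci2, an enoyl-CoA isomerase, by 0.07. The cytosolic thioesterase Acot1 read 9.84, 9.60 and 9.92 in WT and 9.53, 10.23 and 9.30 in EKO tumours. Its EKO values spread on both sides of the WT range, for a difference of -0.10 (adjusted p = 0.943).

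Set against each other, mitochondrial and peroxisomal members differed by less than the spread between replicates. The median difference between EKO and WT was -0.08 over the 18 mitochondrial and -0.20 over the 5 peroxisomal members, a gap of 0.12. With each array left out, the mitochondrial median ran from -0.15 without EKO replicate 2 to -0.04 without EKO replicate 1, and the peroxisomal median from -0.36 without EKO replicate 2 to -0.08 without WT replicate 1. Array by array, the mitochondrial median minus the peroxisomal median of the deviations from each gene's 6-array mean was -0.30, -0.07 and 0.13 in WT and 0.05, -0.08 and 0.19 in EKO replicates 1, 2 and 3. The groups overlapped, the pooled SD was 0.18, and the gap ran from 0.02 without WT replicate 1 to 0.25 without WT replicate 3.

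The PPAR-responsive members outside the oxidation spiral did not separate the groups. Plin2, a coat protein of lipid droplets, read 12.97, 12.25 and 12.47 in WT and 11.59, 12.65 and 12.12 in EKO tumours. EKO replicates 1 and 3 lay below the WT values and replicate 2 among them (difference -0.45, 95% interval -1.13 to 0.24, adjusted p = 0.791). The difference was -0.71 without EKO replicate 2 and -0.18 without EKO replicate 1. Angptl4, a secreted inhibitor of lipoprotein lipase and a widely used PPAR target, read 8.01, 6.93 and 7.75 in WT and 7.90, 7.68 and 7.48 in EKO tumours. All EKO values lay inside the WT range, and the difference of 0.12 (adjusted p = 0.941) became -0.19 without WT replicate 2.

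Pdk4, a kinase that blocks pyruvate dehydrogenase and so favours fatty acid use, read 7.33, 5.03 and 5.98 in WT and 5.85, 5.92 and 5.52 in EKO tumours. The WT tumours spanned the whole range, with an SD of 1.16 against 0.211 in EKO, and the difference of -0.35 (adjusted p = 0.904) became 0.26 without WT replicate 1. Ucp3, a mitochondrial carrier of muscle, differed by -0.12 (95% interval -0.41 to 0.17). Vldlr, a receptor for triglyceride-rich lipoproteins, differed by -0.05, and Fgf21, a hormone of the fasting response whose probe set lay below the array median everywhere, by -0.14. The median of the 6 measured genes was -0.13, and 0.02 without WT replicate 1.

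Markers of other cells of the skin also varied between arrays, and some members shared their highest or lowest array. Of the 15 skeletal muscle markers, 15 were highest in WT replicate 1, the array with the highest Pdk4, Ucp3, Plin2, Acaa1b and Ehhadh. Their mean level was 9.08, 6.08 and 7.42 in WT and 7.17, 6.43 and 6.12 in EKO replicates 1, 2 and 3. WT replicate 1 was the highest of the 6 arrays for 16 of the 33 members and for 3874 of the 18193 genes. Plin2 was lowest in EKO replicate 1, where the muscle mean was the highest of the EKO tumours. The 5 measured adipocyte markers had mean levels of 6.77 to 8.69 in WT and 7.03 to 8.15 in EKO tumours, with WT replicate 2 the lowest, as for Angptl4 and Pdk4. Arrays give no zero level, so no marker can be said to be absent, and the part of these cells in the members' values was not tested.

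Sebaceous gland markers, keratinocyte markers and the members were all, by their medians, highest in replicate 2 among the EKO tumours. Mean levels of the 6 measured sebaceous markers, among them Krt79, Far2 and Mc5r, were 10.18 to 10.62 in WT. They were 9.27, 10.55 and 9.85 in EKO replicates 1, 2 and 3. All 6 had lower EKO means, and all 6 were highest in replicate 2 and lowest in replicate 1 among the EKO tumours. Keratinocyte markers had mean levels of 13.32 to 13.45 in WT and 13.23, 13.50 and 13.44 in EKO replicates 1, 2 and 3. Of these 8 markers, 5 were highest in replicate 2 and 5 lowest in replicate 1 among the EKO tumours. The members had their highest EKO value in replicate 2 in 25 of 33 cases, 75.8% against 30.6% of all genes. Their lowest EKO value was in replicate 1 in 16 and in replicate 3 in 15, so at the low end they did not share the order of the sebaceous markers. Their median deviation from the 6-array mean was -0.13, 0.10 and -0.13 in EKO replicates 1, 2 and 3 and -0.03 to 0.14 in WT. Acaa1b in EKO replicate 2, at 6.68, lay 0.94 below the lowest WT value. In that tumour 4 of the 6 sebaceous markers were within the WT range and 2 above it. The part of sebaceous cells or keratinocytes in the values of Acaa1b and the other members was not tested. Of the macrophage and dendritic cell markers, 10 of 10 had lower EKO means, against 50% of all genes, and 0 were called. Between the groups 5 of 10, among them Mrc1 and C1qa, did not overlap, 50% against 12% of all genes. The other 5, such as Cd68 and Csf1r, did overlap. The mean level of the 10 markers was 7.71 to 8.09 in WT and 7.28 to 7.62 in EKO tumours, without overlap. Their part in the difference of Acaa1b was not tested. By means, 15 of 15 skeletal muscle and 5 of 5 measured adipocyte markers were also lower in EKO tumours, all with overlap. So were 5 of 7 fibroblast, 4 of 5 T and NK cell, 3 of 6 endothelial, 2 of 4 neutrophil and 3 of 8 keratinocyte markers. The part of these cells in the members' values was not tested either.

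**Figure D4:**
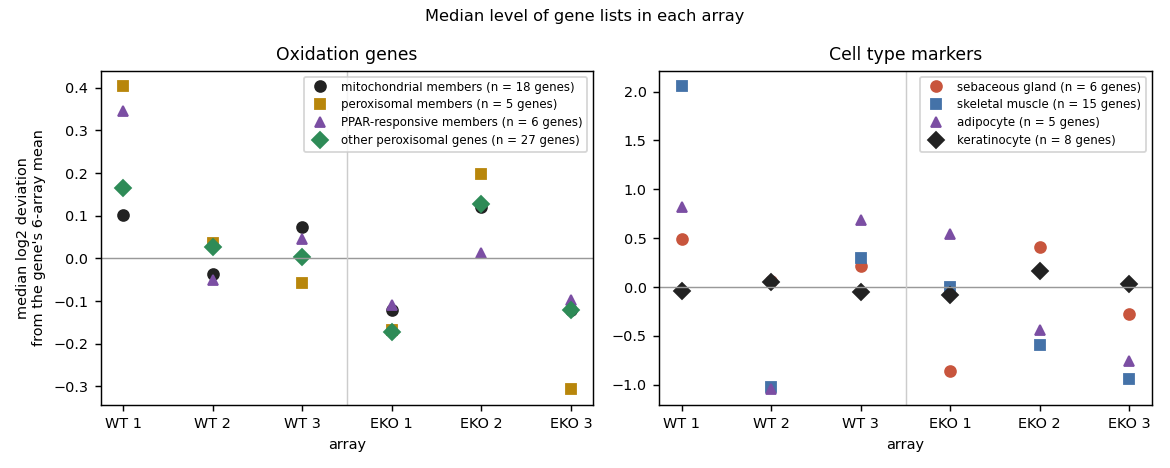
Median deviation from each gene's 6-array mean (log2, vertical axes) in each array, for groups of oxidation genes at left and for cell type markers at right; the legends give the number of genes, and the axes differ in scale. EKO replicates 1 and 3 lie low and EKO replicate 2 within or above the WT range for most oxidation groups. The sebaceous markers are also high in EKO replicate 2 but lowest in EKO replicate 1. The keratinocyte markers are highest in EKO replicate 2 and lowest in EKO replicate 1, and the muscle markers peak in WT replicate 1.

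Other peroxisomal genes, a list that holds no member, had lower means in EKO tumours in 25 of 27 cases, 92.6% against 50% of all genes, with a median difference of -0.15 and 0 called. At an unadjusted p under 0.05 there were 3, against a background of 3.7% on the lower side, and 0 on the higher side. They were Pecr, a peroxisomal enoyl-CoA reductase (-0.22), Phyh, which starts the oxidation of phytanic acid (-0.43), and Abcd2, a transporter of very long acyl chains (-0.36). Abcd2, whose values all lay below the array median, overlapped between the groups, as did Pex13, part of the import machinery (-0.30). Without overlap were 4 of the 27, all lower, 14.8% against 12% of all genes. The count of 25 ran from 21 to 27 with each array left out. The list's median deviation from each gene's mean over all arrays was 0.16, 0.03 and 0.002 in the WT replicates, in order. In the EKO replicates it was -0.17, 0.13 and -0.12, so EKO replicate 2 lay inside the WT range. By this measure the list did not separate the groups, and genes read on the same arrays are not independent cases. Of the 27, 23 had their highest EKO value in replicate 2, as the sebaceous markers and 5 of 8 keratinocyte markers did.

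Other genes of acyl-CoA, carnitine and ketone handling, not all of them mitochondrial enzymes, were lower by their means in 15 of 21 cases. Their median was -0.16 and 0 were called. Acad9, an acyl-CoA dehydrogenase that also helps assemble respiratory complex I, had means of 10.88 in WT and 10.37 in EKO (difference -0.51, SE 0.154, adjusted p = 0.621). Acot13, a thioesterase, differed by -0.30 and Mcee, an epimerase of propionate breakdown, by -0.31. Cpt1c, a form of carnitine palmitoyltransferase known from neurons, had a higher mean, 4.73 in WT and 5.50 in EKO (difference 0.77, SE 0.201, adjusted p = 0.621), both around the array median. In these 4 genes the groups did not overlap, and 6 of the 21 were so separated, 28.6% against 12% of all genes.

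Further PPAR targets had lower means in 17 of 22 cases and higher means in 5, with a median of -0.16 and 0 called. Their differences ran from -0.94 to 0.70, and those named here, picked by smallest unadjusted p, were all lower. Cd36, a fatty acid translocase, differed by -0.94 and Cidea, a lipid droplet protein that also stands in the sebaceous list, by -0.67, both with overlap. Retsat, a retinol saturase, and the transporter Slc27a1 differed by -0.29 and -0.22 without overlap, and 2 of the 22 genes were so separated, 9.09% against 12% of all genes. Among 14 receptors and coregulators, which include repressing as well as activating ones, 7 were lower and 7 higher by their means, with a median of -0.01. Ppard, which encodes PPAR beta/delta, had a difference of 0.44 (SE 0.141, adjusted p = 0.625) and Nrip1 one of 0.24, while Pparg differed by -0.60 (adjusted p = 0.698) and Rxrg by -0.28. Pparg overlapped between the groups, and Ppard, Nrip1 and Rxrg did not. Without overlap were 1 of the 14 on the lower and 3 on the higher side, 28.6% against 12% of all genes.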

How the data were processed

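The deposited values are log2 signals that the authors obtained with Partek 6.6 by RMA (per the submitters' processing notes). The RMA method removes background, quantile-normalizes arrays and summarises probe sets, which narrows differences near the floor. No scan batch is given in the sources used here. Of 45101 probe sets, 64 controls, 932 with several symbols and 9160 unnamed here were set aside. Entrez identifiers of 34741 of the other 34945 matched the RefSeq table, and 0 symbols changed. No filter on low values was set, so every measured member was tested.

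EKO minus WT was fitted with limma 3.58.1 in R 4.3.3 (lmFit, eBayes, two-sided) over 18193 genes, with Benjamini-Hochberg adjustment and a threshold of 0.05. Intervals are limma's 95% intervals, not adjusted for the number of genes. All measured members are named, with Fabp5, the 8 keratinocyte markers and up to 4 genes of each further list by smallest unadjusted p. Cd68 and Csf1r are named outside that rule, as markers with overlap. Some marker lists are given by counts or levels only. Members and lists were chosen with earlier results of these data known. Lists are described by counts and medians, with no set test. The fit was also run on simulated data with noise independent between genes, which does not cover variation that genes share within an array.

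Alternatives were each array left out, a replicate block, array weights, robust variances with an intensity trend, centred medians, quantile normalization run again, only the brighter 50% of genes, all probe sets or their mean per gene, a threshold of 0.1 and the dual-location enzymes moved. Counts of lower means were added after seeing the data.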

Additional observations from a re-analysis of the deposited data

How the results depend on the processing

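No member passed under any of 15 alternatives. The genes past the threshold numbered 2 with all probe sets and 1 to 42 with an array left out, the highest without EKO replicate 2 and 2 without WT replicate 2. With a replicate block they numbered 1, with 0 members, and no call changed. Deviations of same-numbered arrays correlated with r of -0.07, -0.09 and -0.34, and 0 of 6 arrays correlated best with their own number. No pairing by number was seen, though deviations within groups of 3 arrays cannot exclude one. The upper 50% of means left out Ehhadh, Pdk4, Ucp3 and Fgf21.

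Of 33 members, 17 kept their direction under each alternative that gave a value. The difference of Eci1 was 0.039 with array weights and that of Hadhb -0.020 with a mean over probe sets. With each array left out, differences that changed sign ran over these ranges: Acaa2 -0.19 to 0.0097, Acads -0.12 to 0.066, Acot1 -0.37 to 0.094, Acot2 -0.15 to 0.045, Angptl4 -0.19 to 0.34, Cpt1a -0.031 to 0.34, Eci1 -0.097 to 0.052, Eci2 -0.042 to 0.16, Ehhadh -0.43 to 0.056, Etfb -0.038 to 0.12, Fgf21 -0.31 to 0.084, Hadha -0.31 to 0.018, Hadhb -0.056 to 0.086, Pdk4 -0.89 to 0.26, Slc25a20 -0.018 to 0.21 and Vldlr -0.16 to 0.039. The cause was not tested. The medians of the mitochondrial, peroxisomal and PPAR-responsive members and the gap between the first and second of these moved by less than the spread between replicates, though leaving out 1 array changed each by over 1.5 times, and the PPAR-responsive median was 0.019 without WT replicate 1. Leaving out 1 array also moved the differences of 29 of the 33 members by over 1.5 times or turned their sign; the other 4 were Acaa1b, Acadvl, Cat and Echs1.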

Other observations

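Several members have further probe sets, and these did not always match the one described. Of 17 members with several probe sets, 13 had the same sign in all of them. The sets read for Hadhb, Hadh, Crat and Vldlr carry the same suffix as that read for Acaa1a. The brightest Hadhb probe set differed by 0.02 and another by -0.13, the latter without overlap of the groups. The second brightest Hadh set, without that suffix, differed by -0.29, with overlap, against -0.17 for the brightest. The dimmest Acaa2 probe set differed by -0.34, without overlap, against -0.11 for the brightest. For Cpt1a the dimmer sets differed by 0.42 and 0.32, against 0.15. The second Cat probe set differed by 0.18, with overlap, and the second Acadl set, whose values lay below the lower quartile of every array, by -0.07. None of the 59 member probe sets passed with limma over all probe sets (0 called, unadjusted p under 0.05 in 5, which is 8.47% against 7.43% of all probe sets with 1 symbol).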
